A study of Homo sapiens with 30 samples.

Results

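Cholesterol synthesis and transport was described through 31 genes, taken by gene symbol from a fixed list and found among the 26443 genes that held values in the deposited tables. The list holds 7 genes of the mevalonate arm, 12 of the squalene and sterol arm, 5 that sense sterols or transcribe the pathway, and 7 for transport, export and storage. Genes were tested where 3 or more libraries of the experiment reached a value of 1. That left 30 members in every comparison, and ABCA1, a pump that exports cholesterol from the cell, did not reach that level in any experiment.

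Cells build cholesterol from acetyl-CoA by way of mevalonate, farnesyl diphosphate and squalene, and then trim lanosterol into cholesterol. The SREBP transcription factors, encoded by SREBF1 and SREBF2, are escorted out of the endoplasmic reticulum by SCAP when sterols are scarce and are held there by INSIG proteins when sterols are plentiful. Prostate cancer cells draw on cholesterol for membranes, and it is the precursor of androgens.

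The cells were LNCaP, a line from a human prostate cancer that responds to androgen, kept in medium with fetal bovine serum, and their RNA was read in 10 groups with 3 libraries each. In the pLKO experiment, 5 days after infection, the groups were shUSP7-1 (a hairpin against the deubiquitinase USP7), shBUB3 (against the spindle checkpoint protein BUB3), shFOXA1 (against the pioneer transcription factor FOXA1) and the pLKO control vector. In the siRNA experiment, 4 days after transfection, siEZH2 (against the polycomb methyltransferase EZH2) was set against siCtrl. In the pGIPZ experiment, again 5 days after infection, the groups were shFoxA1 K295A and shFoxA1 WT, which carry the FOXA1 hairpin together with HA-tagged mutant or wild-type FOXA1, then shFoxA1 with the hairpin and no added FOXA1, and the pGIPZ control. The third K295A library is outside the sample range for which that time is stated. All groups are 1 cell line, no label gives a hairpin sequence or clone, and nothing says whether the 3 libraries of a group came from separate cultures, so p-values measure only the spread between these libraries. The 3 pLKO knockdowns share 1 control group, and the pGIPZ comparisons share the shFoxA1 and pGIPZ groups, so their results are not independent of each other. The title of the series asks how polycomb and BUB3/USP7 complexes act on FOXA1 protein; these libraries measure RNA.

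Depth spanned 0.900 to 1.30 among pLKO experiment libraries and 0.602 to 0.831 among siRNA libraries, both relative to the first pLKO library, and 0.847 to 1.30 among pGIPZ libraries relative to their own first library. Between 11262 and 12000 genes had a value of at least 1 per library, and libraries of 1 group correlated at r of 0.983 or more across genes. The third shBUB3 library stood apart from the other libraries of its group, and shBUB3 results that it decides are marked. Each targeted gene was lower in its own knockdown: USP7 at 6.13 to 6.38 FPKM in shUSP7-1 against 27.6 to 28.6 in pLKO, BUB3 at 3.47 to 4.70 in shBUB3 against 33.7 to 38.3 in pLKO, FOXA1 at 57.7 to 60.9 in shFOXA1 against 116 in each pLKO library, and EZH2 at 4.83 to 5.08 in siEZH2 against 11.7 to 13.5 in siCtrl. FOXA1 was at 80.4 to 84.0 RPKM in shFoxA1 against 129.6 to 134 in pGIPZ, and at 149 to 155 in shFoxA1 K295A and 151 to 152 in shFoxA1 WT, where native and added transcripts cannot be told apart. EZH2 transcript also fell in shUSP7-1, shBUB3 and shFOXA1, with log2 fold changes of -0.90, -1.29 and -0.98. All 8 luminal prostate markers were above 0 in every group. They summed to 1269 to 1331 FPKM in shUSP7-1, 1559 to 1816 in shBUB3 and 1612 to 1696 in shFOXA1 against 2249 to 2296 FPKM in pLKO, to 613 to 720.0 FPKM in siEZH2 against 2268 to 2350 FPKM in siCtrl, and to 1791 to 1812 RPKM in shFoxA1 K295A, 1840 to 1890 in shFoxA1 WT and 2220 to 2256 in shFoxA1 against 2542 to 2582 RPKM in pGIPZ. Basal, stromal and endothelial markers summed to at most 7.50, 13.3 and 4.62 in any library. The 4 leukocyte markers summed to 32.3 to 35.0 RPKM in shFoxA1 against 12.7 to 14.8 RPKM in pGIPZ, nearly all of it CD68, while the defining leukocyte marker PTPRC was listed at 0 in all libraries of both groups. The part of these markers in the results on cholesterol genes was not tested. Exons of CYP51A1, FDPS, ACAT2, HMGCS1, IDI1, SREBF1 and NPC1 are shared with other genes over 79.4%, 18.6%, up to 33.9%, 15.0%, 14.8%, 6.9% and 6.0% of their bases in GENCODE 29 (GRCh38), all but CYP51A1 on the opposite strand, and whether reads were counted by strand is not given in the sources used here.

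Sequences that the pathway's known regulators read were looked up in RefSeq promoter windows (GRCh38.p14, 250 bases before to 50 after the start), which were at hand for 27 members. The 8 windows shown belong to genes on which the results turn: the regulators SREBF2 and INSIG1, the enzymes FDPS, EBP and MSMO1, the reductase pair TM7SF2 and LBR, and the transporter NPC1. Each line gives the 250 bases before the start, 5′ to 3′ on the gene's strand, with matches on either strand to the sterol regulatory element TCACNCCAC or to the CCAAT box in capitals. They lie at chr22:41832855-41833104, chr7:155297628-155297877, chr1:155308616-155308865, chrX:48521558-48521807, chr4:165327419-165327668 and chr11:65111622-65111871 on the plus strand, and at chr1:225428822-225429071 and chr18:23586507-23586756 on the minus strand, in the order of the lines.
SREBF2: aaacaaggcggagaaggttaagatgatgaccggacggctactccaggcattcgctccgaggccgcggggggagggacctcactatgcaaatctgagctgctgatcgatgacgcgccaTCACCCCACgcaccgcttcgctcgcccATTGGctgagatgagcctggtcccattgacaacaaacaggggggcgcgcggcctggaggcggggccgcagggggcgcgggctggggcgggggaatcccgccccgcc
INSIG1: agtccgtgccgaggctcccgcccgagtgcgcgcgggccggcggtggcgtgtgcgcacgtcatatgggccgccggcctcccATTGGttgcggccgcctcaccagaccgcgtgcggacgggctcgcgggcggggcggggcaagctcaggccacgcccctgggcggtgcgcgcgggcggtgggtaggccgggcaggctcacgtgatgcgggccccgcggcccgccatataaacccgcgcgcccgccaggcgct
FDPS: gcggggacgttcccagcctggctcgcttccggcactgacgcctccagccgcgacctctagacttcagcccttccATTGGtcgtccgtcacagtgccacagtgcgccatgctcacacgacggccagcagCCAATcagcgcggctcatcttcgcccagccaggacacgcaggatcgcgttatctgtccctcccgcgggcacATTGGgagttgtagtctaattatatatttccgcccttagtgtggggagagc
EBP: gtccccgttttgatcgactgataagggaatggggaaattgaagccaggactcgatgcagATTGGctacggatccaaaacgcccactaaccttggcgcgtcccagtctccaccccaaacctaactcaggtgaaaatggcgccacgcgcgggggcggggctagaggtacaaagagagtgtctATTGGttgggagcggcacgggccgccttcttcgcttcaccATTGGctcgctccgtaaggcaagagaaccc
MSMO1: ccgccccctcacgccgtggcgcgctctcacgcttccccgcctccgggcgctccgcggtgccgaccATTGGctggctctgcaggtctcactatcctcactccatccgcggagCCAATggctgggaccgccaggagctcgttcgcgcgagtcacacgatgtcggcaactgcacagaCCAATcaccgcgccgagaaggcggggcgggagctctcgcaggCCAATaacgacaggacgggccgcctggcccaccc
TM7SF2: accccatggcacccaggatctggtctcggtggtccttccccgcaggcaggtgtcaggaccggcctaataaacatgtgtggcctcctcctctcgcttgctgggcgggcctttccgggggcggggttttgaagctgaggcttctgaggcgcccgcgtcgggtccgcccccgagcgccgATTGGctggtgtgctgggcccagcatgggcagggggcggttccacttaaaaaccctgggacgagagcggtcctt
LBR: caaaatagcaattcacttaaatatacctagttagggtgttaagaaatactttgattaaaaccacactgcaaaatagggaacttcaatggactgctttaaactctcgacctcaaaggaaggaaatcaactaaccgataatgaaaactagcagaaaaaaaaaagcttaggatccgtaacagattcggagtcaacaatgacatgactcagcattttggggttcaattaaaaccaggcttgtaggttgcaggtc
NPC1: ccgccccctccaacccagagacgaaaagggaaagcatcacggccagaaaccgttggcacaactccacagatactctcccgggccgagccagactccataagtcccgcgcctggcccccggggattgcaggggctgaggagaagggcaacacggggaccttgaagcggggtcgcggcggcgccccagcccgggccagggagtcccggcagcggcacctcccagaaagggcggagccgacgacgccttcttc

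An exact match to the sterol regulatory element TCACNCCAC was found in 1 of the 27 members, SREBF2. The match starts 133 bases before the start site, and a CCAAT box follows 106 bases before that site. Of all 27305 genes with a window, 1.39% held such a match. A CCAAT box, the motif read by NF-Y, was present in 19 of 27 members, or 70.4%, against 39.7% of all genes. MSMO1 held 4 CCAAT boxes, EBP and FDPS 3 each, and INSIG1 and TM7SF2 1 each. The windows of LBR and NPC1 held neither motif. The forkhead motif TGTTTAC was in 0 of 27 members and in 4.19% of all genes. These are exact matches of letters in short windows and do not show binding. A window without a match may still hold a site with other letters, and sites outside the windows were not sought.

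Counts of members that passed the test are given at an adjusted p under 0.05 (limma, Benjamini-Hochberg over all genes tested), with log2 fold changes on the log2(value + 1) scale ± SE. In shUSP7-1 against pLKO, 18 members fell and 8 rose, where 33.0% of all genes tested fell and 29.1% rose, and the median log2 fold change was -0.41 over the members and -0.019 over all genes. At least 2-fold lower were 7 members, against 5.79% of all genes. That count of members was 4 in shBUB3, 6 in shFOXA1, 7 in siEZH2 and 0 in shFoxA1, for which the share of all genes is not given here. In shBUB3 against pLKO, 10 members fell and 14 rose, where 32.0% of genes fell and 33.3% rose, with medians of 0.13 and 0.0071. In shFOXA1 against pLKO, 16 members fell and 6 rose, where 45.1% of genes fell and 25.2% rose, with medians of -0.23 and -0.15. In siEZH2 against siCtrl, 21 members fell and 4 rose, where 43.0% of genes fell and 20.3% rose, with medians of -0.44 and -0.16. In shFoxA1 against pGIPZ, 22 members fell and 3 rose, where 24.2% of genes fell and 25.0% rose, with medians of -0.22 and 0.0011. As shares of the 30 members, the lower counts in shUSP7-1, siEZH2 and shFoxA1 lie well above those of all genes, and the counts in shFOXA1 against pLKO lie close to them. In bulk RNA, fewer cells that express a gene and less of its RNA per cell cannot be told apart.

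**Figure D1:**
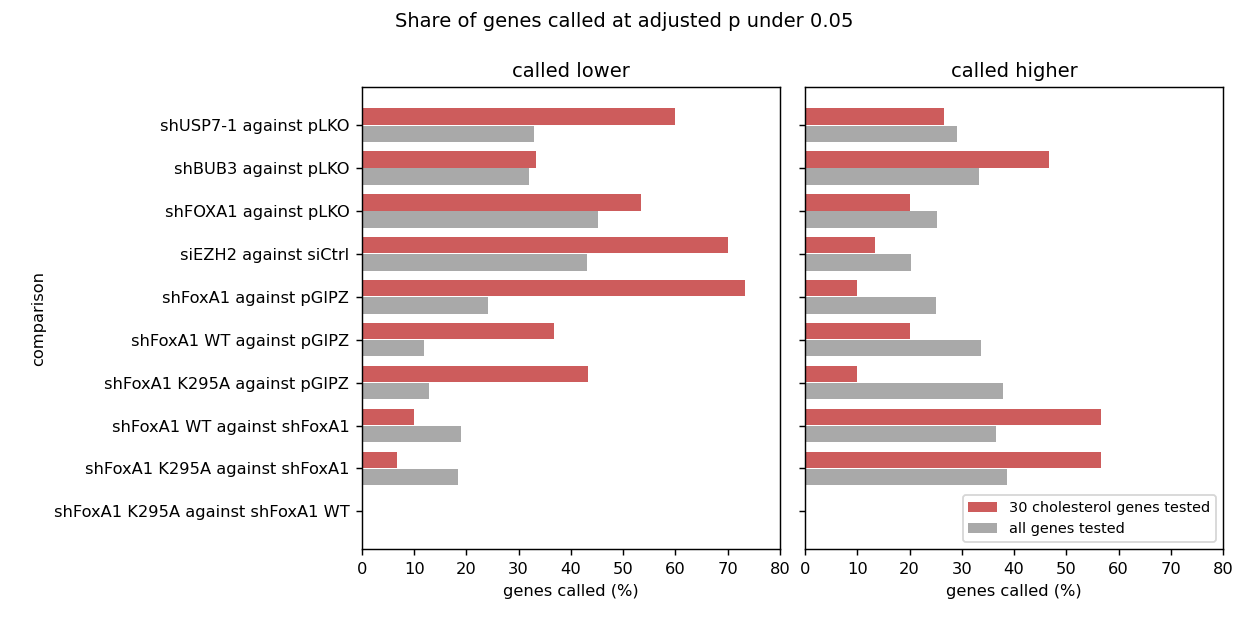
Share of genes called at adjusted p under 0.05 (percent, x axis) in each comparison, lower on the left and higher on the right, for the 30 cholesterol genes tested (red) and all genes tested (grey). In shFoxA1 against pGIPZ, 22 of the 30 members were called lower, where 24.2% of all genes were.

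With median-ratio scaling between libraries, the median over all genes shifted by 0.16 on the log2 scale in shFOXA1 against pLKO and by 0.17 in siEZH2 against siCtrl. Of the called genes, the share with higher values then moved to 50.1% with scaling, against 35.9% as deposited, in shFOXA1, and to 49.9% with scaling, against 32.1% as deposited, in siEZH2. After that scaling 13 members fell and 9 rose in shFOXA1 against pLKO, where 4330 of 12524 genes tested fell and 4350 rose. In siEZH2 against siCtrl 16 members fell and 4 rose, where 3756 of 11908 genes tested fell and 3743 rose. The median over the members became -0.065 in shFOXA1 and -0.26 in siEZH2. Scaling left the counts of members at 18 lower and 8 higher in shUSP7-1, 11 lower and 14 higher in shBUB3, and 23 lower and 3 higher in shFoxA1. Of 12524 genes tested, 3921 fell and 3962 rose with scaling in shUSP7-1, and 4063 fell and 4121 rose in shBUB3. In shFoxA1, 3196 of 12563 genes tested fell and 3056 rose.

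**Figure D2:**
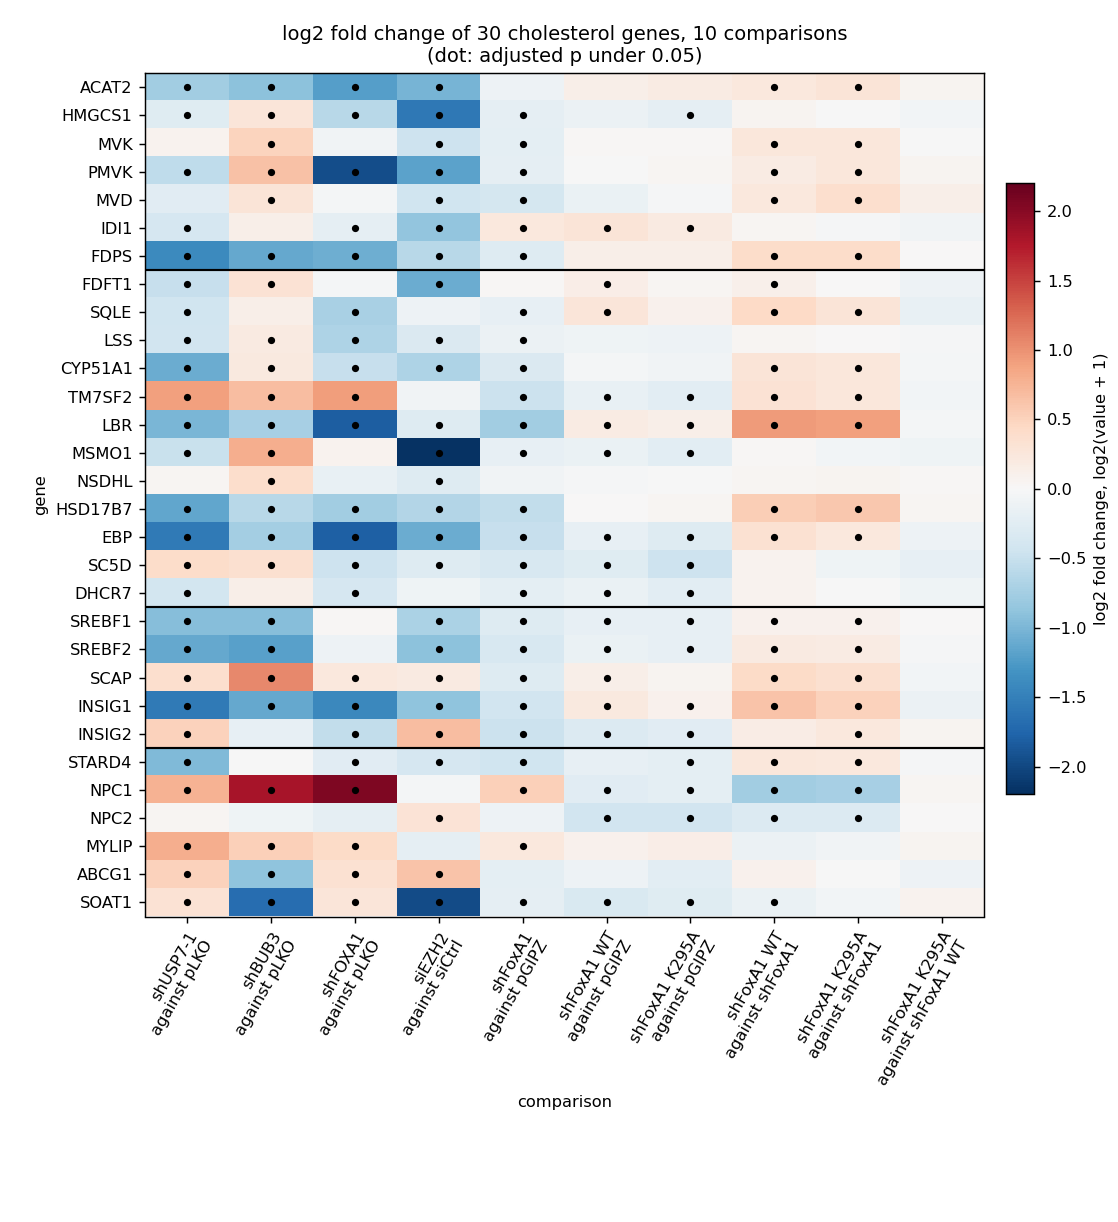
Log2 fold change on log2(value + 1) (colour, red higher and blue lower in the first-named group) of the 30 tested cholesterol genes (y axis, ordered by role, lines between roles) in 10 comparisons (x axis); a dot marks adjusted p under 0.05. EBP, INSIG1, FDPS, LBR and HSD17B7 are blue with a dot in each of the 5 knockdown columns, while NPC1 is red in 4 of them. Values are as deposited, and the call of LBR in siEZH2 was lost after median-ratio scaling.

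The members spanned a wide range of abundance. In pLKO libraries the order of mean FPKM, which is per length, ran from SREBF1 at 144 ± 2.82 and TM7SF2 at 118 ± 0.687 (SD, n = 3) through FDPS, DHCR7, FDFT1 and EBP at 67.8, 66.9, 61.9 and 57.7 down to STARD4 at 4.07 ± 0.365, ABCG1 at 3.08 ± 0.399 and ABCA1, the lowest, at 0.155 ± 0.0449. FDPS and DHCR7 overlapped in that order, as did SREBF2 and INSIG1 at 49.9 ± 0.661 and 49.6 ± 2.33 FPKM. In shUSP7-1 libraries TM7SF2 ranked first at 220.2 ± 1.54 FPKM, ahead of SREBF1 at 75.1 ± 1.89 and NPC1 at 73.8 ± 1.52 FPKM.

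The mevalonate arm turns acetyl-CoA into the isoprenoid farnesyl diphosphate. Of its 7 genes, 5 fell and none rose in shUSP7-1, 2 fell and 4 rose in shBUB3, 5 fell and none rose in shFOXA1, all 7 fell in siEZH2, and 5 fell and 1 rose in shFoxA1. Of all genes tested, 33.0% fell and 29.1% rose in shUSP7-1, 32.0% and 33.3% in shBUB3, 45.1% and 25.2% in shFOXA1, 43.0% and 20.3% in siEZH2, and 24.2% and 25.0% in shFoxA1. In shBUB3 the 2 of 7 genes that fell lie near the share of all genes, and the 4 of 7 that rose lie above it. After scaling, 4 genes of the arm fell in shFOXA1 and 6 in siEZH2, where 4330 of 12524 and 3756 of 11908 genes tested fell. The arm's median log2 fold change was -0.37, 0.26, -0.60, -0.86 and -0.19 in that order.

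FDPS, the synthase that makes farnesyl diphosphate, fell in all 5 knockdown comparisons. FDPS was at 25.1, 24.8 and 25.5 FPKM in shUSP7-1, 26.9, 29.7 and 35.5 in shBUB3 and 31.6, 32.2 and 31.3 in shFOXA1 libraries, against 67.9, 69.1 and 66.3 FPKM in pLKO. Every knockdown library lay below every pLKO library, with log2 fold changes of -1.40 ± 0.078 in shUSP7-1 (adjusted p = 3.3e-08), -1.13 ± 0.078 in shBUB3 (adjusted p = 1.8e-07) and -1.07 ± 0.078 in shFOXA1 (adjusted p = 1.9e-07). FDPS was at 51.3, 46.4 and 47.1 FPKM in siEZH2 against 74.4, 69.8 and 79.2 FPKM in siCtrl, and at 39.5, 36.4 and 37.5 RPKM in shFoxA1 against 43.1, 45.3 and 50.1 RPKM in pGIPZ. Neither pair of groups overlapped, and the log2 fold changes were -0.61 ± 0.073 and -0.28 ± 0.062 (adjusted p = 4.5e-05 and 0.0028). Reads of FDPS may be shared with 8 annotated pseudogenes that carry its name and with the antisense gene RUSC1-AS1.

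ACAT2, the thiolase that joins acetyl-CoA units at the entry of the pathway, was at 8.41, 8.44 and 8.72 FPKM in shUSP7-1, 6.73, 7.78 and 8.50 in shBUB3 and 5.86, 5.79 and 6.26 in shFOXA1 libraries, against 15.4, 15.3 and 14.8 FPKM in pLKO. It was also at 17.2, 14.5 and 12.9 FPKM in siEZH2 against 29.7, 30.6 and 32.4 FPKM in siCtrl. None of these groups overlapped its control, and ACAT2 fell, with log2 fold changes of -0.77, -0.91, -1.22 and -1.02 in that order (SE 0.068 in the first 3 and 0.099 in siEZH2). In the pGIPZ experiment ACAT2 overlapped between shFoxA1, at 12.2, 12.2 and 11.6 RPKM, and pGIPZ, at 12.5, 11.8 and 14.9 RPKM, with a log2 fold change of -0.11 ± 0.073 (adjusted p = 0.23). Exons of ACAT2 overlap SOD2, SOD2-OT1 and TCP1 on the other strand, so its values are uncertain.

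HMGCS1, the synthase that makes HMG-CoA, rose in shBUB3 and fell in the other knockdowns. It was at 20.5, 21.6 and 18.6 FPKM in shBUB3, all above the 17.2, 16.0 and 16.9 FPKM of pLKO, and rose by 0.26 (adjusted p = 0.0018). It was at 9.08, 6.61 and 6.54 FPKM in siEZH2 against 23.8, 23.0 and 24.3 FPKM in siCtrl, a log2 fold change of -1.57 ± 0.11 (adjusted p = 1.4e-06). HMGCS1 also fell in shFOXA1 (-0.60), shUSP7-1 (-0.26) and shFoxA1 (-0.19).

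PMVK, the kinase that adds the second phosphate to mevalonate, was at 6.06, 6.29 and 6.12 FPKM in shFOXA1 against 25.9, 27.8 and 26.7 FPKM in pLKO, the largest fall of a mevalonate gene in that comparison. Its log2 fold change there was -1.96 ± 0.16 (adjusted p = 4.7e-07), and it also fell in shUSP7-1 at 18.8, 17.2 and 18.0 FPKM (-0.55). In shBUB3 it was at 35.5, 35.3 and 60.5 FPKM and rose by 0.64 (adjusted p = 0.0037). The third shBUB3 library set much of that value, and without it the log2 fold change of PMVK was 0.39 (adjusted p = 9.8e-06). PMVK fell in siEZH2, at 20.1, 20.9 and 17.9 FPKM against 42.9, 46.0 and 48.1 FPKM in siCtrl (-1.18), and in shFoxA1 (-0.19).

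IDI1, the isomerase that makes the second isoprenoid building block, was at 20.6, 18.3 and 15.1 FPKM in siEZH2 against 29.8, 33.8 and 36.7 FPKM in siCtrl, a log2 fold change of -0.86 ± 0.11 (adjusted p = 9.4e-05). It fell in shUSP7-1 (-0.37) and in shFOXA1 (-0.19). The value in shFOXA1 was -0.0098 (adjusted p = 0.9) after scaling and missed the threshold without shFOXA1 replicate 1 (adjusted p = 0.056). In shFoxA1, IDI1 was at 21.7, 19.1 and 20.8 RPKM, each above the 17.9, 18.1 and 16.1 RPKM of pGIPZ, and rose by 0.23 (adjusted p = 0.017). That call was lost without pGIPZ replicate 3 (adjusted p = 0.072) or shFoxA1 replicate 1 (adjusted p = 0.067). MVK, the mevalonate kinase, rose in shBUB3 (0.49; 0.31 without the third shBUB3 library) and fell in siEZH2 (-0.45) and shFoxA1 (-0.22). MVD, the decarboxylase that follows PMVK, fell in siEZH2 (-0.43; -0.25 with adjusted p = 0.05 after scaling) and in shFoxA1 (-0.39). In shBUB3 its log2 fold change of 0.29 passed the test at adjusted p = 0.033, was 0.13 without the third shBUB3 library, and missed the threshold without pLKO replicate 1, 2 or 3 (adjusted p = 0.076, 0.086 and 0.052).

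The squalene and sterol arm runs from squalene through lanosterol to cholesterol. Of its 12 genes, 9 fell and 2 rose in shUSP7-1, 3 fell and 7 rose in shBUB3, and 8 fell and 1 rose in shFOXA1. In siEZH2, 9 fell and none rose, and in shFoxA1, 10 fell and none rose. The shares of all genes that fell were 33.0%, 32.0%, 45.1%, 43.0% and 24.2% in that order. Those that rose were 29.1%, 33.3%, 25.2%, 20.3% and 25.0%. After scaling, 7 genes of the arm fell and 3 rose in shFOXA1, where 4330 of 12524 genes tested fell and 4350 rose. In siEZH2, 5 genes of the arm fell and none rose after scaling, with a scaled median of -0.12. There 3756 of 11908 genes tested fell and 3743 rose. As deposited, the arm's median log2 fold change was -0.47, 0.21, -0.48, -0.30 and -0.27 in that order. The 3 that fell in shBUB3 were EBP, LBR and HSD17B7, which fell in all 5 knockdowns as deposited. The call of LBR in siEZH2 was lost after scaling, and the share of all genes that fell in all 5 is not given here.

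EBP, the sterol isomerase that moves the ring double bond late in the pathway, had the largest fall of the arm in shUSP7-1. EBP was at 19.1, 17.8 and 19.8 FPKM in shUSP7-1, 28.4, 29.1 and 46.4 in shBUB3 and 14.8, 16.5 and 16.6 in shFOXA1 libraries, against 58.2, 55.1 and 59.8 FPKM in pLKO. No knockdown library reached a pLKO library, although the third shBUB3 library was well above the rest of its group, and the log2 fold changes were -1.56 ± 0.15, -0.76 ± 0.15 and -1.79 ± 0.15 (adjusted p = 2.5e-06, 0.00075 and 5.3e-07). Without the third library the value in shBUB3 was -0.98. EBP was at 30.5, 33.1 and 35.7 FPKM in siEZH2 against 70.4, 72.5 and 71.9 FPKM in siCtrl, and at 56.7, 55.8 and 55.3 RPKM in shFoxA1 against 81.6, 81.9 and 77.1 RPKM in pGIPZ. These groups also stood apart, with log2 fold changes of -1.09 ± 0.072 and -0.51 ± 0.038 (adjusted p = 9e-07 and 5.1e-07).

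CYP51A1, the lanosterol demethylase, fell most in shUSP7-1. CYP51A1 was at 13.5, 14.4 and 16.0 FPKM in shUSP7-1, 36.4, 38.5 and 37.9 in shBUB3 and 21.5, 22.2 and 23.7 in shFOXA1 libraries, against 31.9, 32.9 and 32.1 FPKM in pLKO. It fell in shUSP7-1 (-1.10) and shFOXA1 (-0.51) and rose in shBUB3 (0.21), without overlap (SE 0.060 each; adjusted p = 3e-08, 1.3e-05 and 0.0083). It fell in siEZH2 (-0.68) and in shFoxA1 (-0.32) as well. Most of its exon bases lie also in the gene AC000120.2 on the same strand, so how its reads were assigned is uncertain.

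The reductases TM7SF2 and LBR act on the same sterol double bond after CYP51A1, and LBR is also a protein of the nuclear envelope that binds lamins and chromatin. They went opposite ways in the pLKO experiment. TM7SF2 was at 220.3, 222 and 219 FPKM in shUSP7-1, 178, 168 and 225 in shBUB3 and 218, 229.8 and 219.6 in shFOXA1 libraries, against 117, 118 and 118 FPKM in pLKO. LBR was at 11.2, 11.3 and 12.1 FPKM in shUSP7-1, 15.2, 15.7 and 11.8 in shBUB3 and 6.16, 6.12 and 6.17 in shFOXA1 libraries, against 25.2, 24.7 and 22.6 FPKM in pLKO. All knockdown libraries were above the controls for TM7SF2 and below them for LBR. TM7SF2 rose by 0.90, 0.68 and 0.91 in that order (SE 0.089 each), and LBR fell with log2 fold changes of -1.0, -0.73 and -1.81 (SE 0.088 each; largest adjusted p of the 6 values = 3.9e-05). The ratio of LBR to TM7SF2 was 0.0524 ± 0.0026 in shUSP7-1, 0.0769 ± 0.0216 in shBUB3 and 0.0276 ± 0.00089 in shFOXA1, against 0.205 ± 0.0117 in pLKO (SD, n = 3 each).

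In the other experiments the pair was not called in opposite directions. The ratio of LBR to TM7SF2 was still lower in shFoxA1, at 0.063 to 0.0673, than in pGIPZ, at 0.0763 to 0.0881. It was 0.105 to 0.109 in shFoxA1 K295A and 0.104 to 0.108 in shFoxA1 WT. In siEZH2 the ratio, at 0.206 to 0.268, overlapped the 0.256 to 0.284 of siCtrl. TM7SF2 was at 138, 160.3 and 167 FPKM in siEZH2, overlapping the 163, 165 and 162 FPKM of siCtrl, with a log2 fold change of -0.079 ± 0.079 (adjusted p = 0.4). LBR was at 36.9, 38.1 and 34.4 FPKM in siEZH2 against 45.1, 46.9 and 41.6 FPKM in siCtrl and fell (-0.28), a call that was lost after scaling (-0.088, adjusted p = 0.3). In shFoxA1 both fell: TM7SF2 was at 168, 159.8 and 160.0 RPKM against 224, 224 and 230.1 RPKM in pGIPZ (-0.47 ± 0.023, adjusted p = 1.1e-08), and LBR was at 11.1, 10.1 and 10.8 RPKM against 19.7, 19.3 and 17.6 RPKM (-0.77 ± 0.047, adjusted p = 7.8e-08). The direction of TM7SF2 differed between the FOXA1 hairpin experiments, in different vectors and tables, and that difference was not tested.

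**Figure D3:**
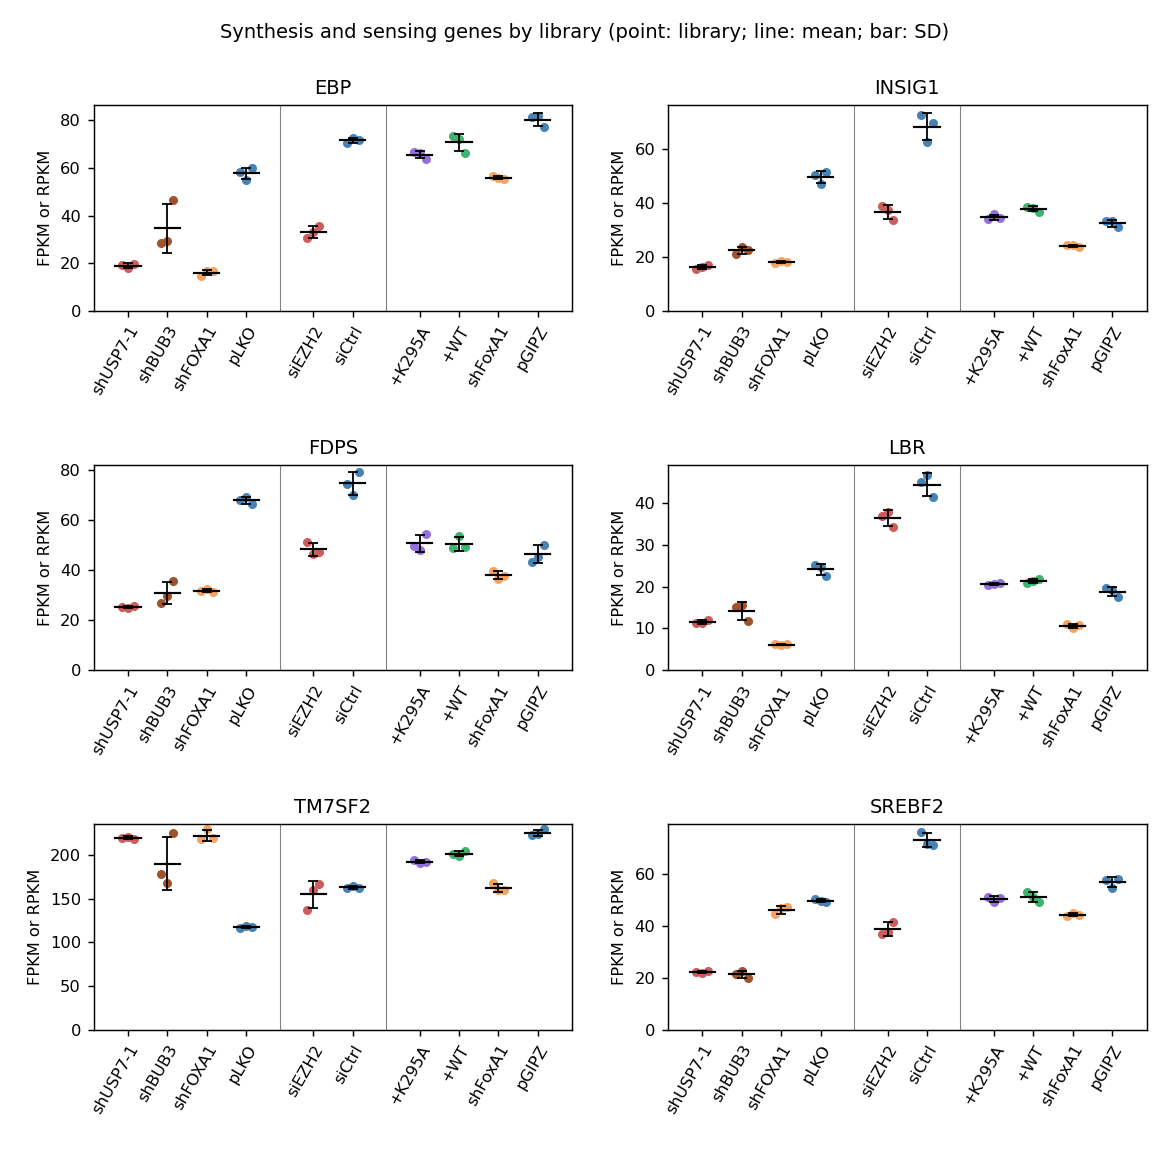
Level of 6 synthesis and sensing genes in each library (points; FPKM left of the second grey line, RPKM right of it), with the mean (line) and SD (bar) of 3 libraries per group; +K295A and +WT are shFoxA1 K295A and shFoxA1 WT. EBP, INSIG1, FDPS and LBR lie below their control in every knockdown, and TM7SF2 lies above pLKO in the 3 pLKO knockdowns.

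MSMO1, NSDHL and HSD17B7 together remove methyl groups from the sterol ring. MSMO1, the monooxygenase of that step, showed the widest spread of the arm. It was at 10.9, 9.56 and 9.20 FPKM in siEZH2 against 45.4, 50.1 and 48.1 FPKM in siCtrl, a log2 fold change of -2.17 ± 0.080 (adjusted p = 4.3e-08) and the largest fall of any member in siEZH2. In the pLKO experiment MSMO1 was at 21.3, 19.7 and 20.3 FPKM in shUSP7-1, 52.2, 50.9 and 50.9 in shBUB3 and 29.1, 30.1 and 32.4 in shFOXA1 libraries, against 29.6, 29.4 and 28.1 FPKM in pLKO. It rose in shBUB3 by 0.80 (adjusted p = 9e-08), fell in shUSP7-1 (-0.49), and overlapped the controls in shFOXA1 (0.070 ± 0.051, adjusted p = 0.24), where it passed the test after scaling (0.26, adjusted p = 0.00046).

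HSD17B7, the reductase of the same complex, was at 4.30, 3.59 and 3.33 FPKM in shUSP7-1, 5.35, 5.85 and 6.47 in shBUB3 and 4.62, 5.62 and 5.18 in shFOXA1 libraries, against 8.67, 9.76 and 9.96 FPKM in pLKO. It was at 5.26, 4.07 and 3.89 FPKM in siEZH2 against 7.53, 7.0 and 7.71 FPKM in siCtrl, and at 4.06, 3.57 and 3.40 RPKM in shFoxA1 against 6.03, 5.0 and 6.44 RPKM in pGIPZ. No knockdown overlapped its control, and the log2 fold changes were -1.14, -0.60, -0.77, -0.65 and -0.54; 2 pseudogenes carry its name and may share its reads. NSDHL, the dehydrogenase of the complex, rose in shBUB3 (0.38) and fell in siEZH2 (-0.29). That fall was -0.10 (adjusted p = 0.39) after scaling and missed the threshold without siCtrl replicate 3 (adjusted p = 0.093) or siEZH2 replicate 1 (adjusted p = 0.056).

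The first enzymes of the arm fell in shUSP7-1: FDFT1, the squalene synthase (-0.50), SQLE, the squalene epoxidase (-0.44), and LSS, which closes the rings of lanosterol (-0.42). FDFT1 was at 35.0, 32.2 and 30.1 FPKM in siEZH2 against 68.5, 69.6 and 73.3 FPKM in siCtrl, a log2 fold change of -1.10 ± 0.073 (adjusted p = 9.9e-07), and rose in shBUB3 by 0.31. In shFOXA1 FDFT1 was at 59.7 ± 1.41 FPKM against 61.9 ± 0.388 FPKM in pLKO (SD, n = 3 each), and its sign turned with scaling (-0.050 as deposited with adjusted p = 0.41, 0.14 scaled with adjusted p = 0.042). SQLE was at 10.5, 11.3 and 10.3 FPKM in shFOXA1 against 19.5, 18.3 and 16.8 FPKM in pLKO (-0.71 ± 0.073, adjusted p = 4.1e-06), and overlapped its controls in shBUB3 and siEZH2. Without the third shBUB3 library SQLE passed the test at 0.20 (adjusted p = 0.017). LSS was at 6.91, 7.42 and 7.20 FPKM in shFOXA1, also below every pLKO library (-0.68 ± 0.049, adjusted p = 1.7e-07).

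SC5D and DHCR7 complete the ring of cholesterol. SC5D, the sterol desaturase, was at 13.7, 14.5 and 14.5 FPKM in shUSP7-1, 13.8, 14.7 and 12.4 in shBUB3 and 7.50, 7.39 and 7.36 in shFOXA1 libraries, against 10.8, 10.0 and 10.7 FPKM in pLKO. It rose in shUSP7-1 (0.41) and shBUB3 (0.35) and fell in shFOXA1 (-0.45), siEZH2 (-0.29) and shFoxA1 (-0.35). The value in siEZH2 was -0.10 (adjusted p = 0.31) after scaling and missed the threshold without siCtrl replicate 2 (adjusted p = 0.068). DHCR7, the reductase that yields cholesterol itself, fell in shUSP7-1 (-0.41) and shFoxA1 (-0.22), and in shFOXA1 (-0.36) as deposited but not after scaling (-0.18, adjusted p = 0.066). In siEZH2 DHCR7 overlapped siCtrl, at 81.5 ± 5.81 FPKM against 87.3 ± 6.03 FPKM (SD, n = 3 each; adjusted p = 0.29).

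Among the genes that sense sterols, both SREBP genes fell in most knockdowns. SREBF2, which encodes the SREBP of cholesterol synthesis, was at 22.3, 21.7 and 22.6 FPKM in shUSP7-1, 21.3, 22.8 and 20.1 in shBUB3 and 44.7, 47.1 and 47.2 in shFOXA1 libraries, against 50.6, 49.8 and 49.3 FPKM in pLKO. Its libraries were well below the control level in shUSP7-1 and shBUB3 and only just below it in shFOXA1. The log2 fold changes of SREBF2 were -1.13 ± 0.050, -1.19 ± 0.050 and -0.11 ± 0.050 (adjusted p = 5.2e-09, 3.2e-09 and 0.081). SREBF2 was at 37.0, 37.9 and 41.8 FPKM in siEZH2 against 76.6, 72.0 and 71.5 FPKM in siCtrl, and at 43.9, 45.1 and 44.5 RPKM in shFoxA1 against 58.0, 54.8 and 58.4 RPKM in pGIPZ. Neither overlapped, with log2 fold changes of -0.90 ± 0.071 and -0.35 ± 0.034 (adjusted p = 2.7e-06 and 4.8e-06).

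SREBF1, which encodes the SREBP better known for fatty acid synthesis, was at 73.1, 75.5 and 76.8 FPKM in shUSP7-1, 73.9, 71.5 and 80.4 in shBUB3 and 144, 151 and 148 in shFOXA1 libraries, against 144, 141 and 146 FPKM in pLKO. It fell in shUSP7-1 (-0.93) and in shBUB3 (-0.93), and in shFOXA1 it overlapped the controls (0.033 ± 0.053, adjusted p = 0.6), passing the test as higher after scaling (0.22, adjusted p = 0.004). SREBF1 fell in siEZH2 (-0.70) and in shFoxA1 (-0.28).

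SCAP, the escort of both SREBPs, rose in 4 of the 5 knockdowns and fell in shFoxA1. SCAP was at 36.8, 38.9 and 38.5 FPKM in shUSP7-1, 59.8, 57.6 and 67.2 in shBUB3 and 33.1, 35.0 and 35.6 in shFOXA1 libraries, against 29.6, 29.4 and 28.3 FPKM in pLKO. Every knockdown library was above every control, and SCAP rose by 0.38, 1.05 and 0.24 (SE 0.059 each; adjusted p = 0.00018, 3.2e-08 and 0.0034). In siEZH2 it was at 31.2, 32.5 and 35.5 FPKM against 29.8, 27.6 and 28.4 FPKM in siCtrl (0.20, adjusted p = 0.033), a call lost without siCtrl replicate 2 or 3 or siEZH2 replicate 2 or 3 (adjusted p = 0.12, 0.089, 0.067 and 0.1). In shFoxA1 SCAP fell, at 37.1, 38.2 and 37.0 RPKM against 46.1, 45.8 and 46.0 RPKM in pGIPZ (-0.29 ± 0.026, adjusted p = 2.8e-06).

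INSIG1, the retention protein that is itself switched on by SREBPs, was the most strongly called member in shUSP7-1 and shFOXA1. INSIG1 was at 15.5, 16.1 and 16.8 FPKM in shUSP7-1, 20.9, 23.6 and 22.5 in shBUB3 and 17.6, 18.4 and 18.1 in shFOXA1 libraries, against 50.2, 47.0 and 51.5 FPKM in pLKO. No library came near the controls, and the log2 fold changes were -1.56, -1.12 and -1.41 (SE 0.056 each; adjusted p = 1e-09, 1.3e-08 and 1.3e-09). INSIG1 also fell in siEZH2, at 38.9, 37.2 and 33.7 FPKM against 72.3, 62.7 and 69.7 FPKM in siCtrl (-0.88 ± 0.080), and in shFoxA1, at 24.2, 24.3 and 23.6 RPKM against 33.1, 33.2 and 30.9 RPKM in pGIPZ (-0.41 ± 0.036).

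INSIG2, the second retention protein, is known to be less dependent on SREBPs. It was at 12.2, 11.5 and 14.1 FPKM in shUSP7-1, 7.16, 7.32 and 7.77 in shBUB3 and 5.65, 5.50 and 5.53 in shFOXA1 libraries, against 7.82, 8.72 and 9.0 FPKM in pLKO. INSIG2 rose in shUSP7-1 (0.51) and fell in shFOXA1 (-0.53), and its value in shBUB3 of -0.18 ± 0.073 (adjusted p = 0.053) passed the test without the third shBUB3 library (-0.21, adjusted p = 0.029). It rose in siEZH2, at 20.6, 20.3 and 16.7 FPKM against 12.9, 10.4 and 11.3 FPKM in siCtrl (0.68 ± 0.10, adjusted p = 0.00023), and fell in shFoxA1 (-0.48). INSIG1 and INSIG2 thus had opposite called directions in shUSP7-1 and siEZH2, and the same called direction in both FOXA1 knockdowns.

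The transport, export and storage genes moved in both directions in every knockdown. Of the 6 tested, 1 fell and 4 rose in shUSP7-1, 2 fell and 2 rose in shBUB3, 1 fell and 4 rose in shFOXA1, 2 fell and 2 rose in siEZH2, and 2 fell and 2 rose in shFoxA1. The shares of all genes were 33.0% lower and 29.1% higher in shUSP7-1, 32.0% and 33.3% in shBUB3, 45.1% and 25.2% in shFOXA1, 43.0% and 20.3% in siEZH2, and 24.2% and 25.0% in shFoxA1, and the counts of these genes in shBUB3 lie at those shares. After scaling none of these 6 genes fell and 4 rose in shFOXA1, where 4330 of 12524 genes tested fell and 4350 rose. As deposited, the median log2 fold change of the 6 genes was 0.42, -0.056, 0.30, -0.12 and -0.16 in the order given above.

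NPC1, the membrane protein that lets cholesterol leave the lysosome, had the largest rise of any member. NPC1 was at 72.0, 74.5 and 74.8 FPKM in shUSP7-1, 171, 168 and 127 in shBUB3 and 182, 180.0 and 181 in shFOXA1 libraries, against 44.6, 40.2 and 44.2 FPKM in pLKO. The knockdown libraries were all far above the controls, most of all in shFOXA1, where the spread was small. NPC1 rose by 0.77, 1.82 and 2.05 on the log2 scale (SE 0.097 each; adjusted p = 3.1e-05, 2.1e-08 and 5.4e-09). In shFoxA1 it was at 47.8, 46.3 and 49.8 RPKM against 34.1, 32.5 and 33.0 RPKM in pGIPZ, again without overlap (0.52 ± 0.037, adjusted p = 3.2e-07). In siEZH2 it was at 32.2, 38.0 and 43.1 FPKM and overlapped the 41.2, 39.3 and 35.8 FPKM of siCtrl (-0.044 ± 0.10, adjusted p = 0.73). NPC2, the soluble protein that hands cholesterol to NPC1, was at 23.3 ± 0.952 FPKM in shUSP7-1 and 19.4 ± 0.346 in shFOXA1 against 22.6 ± 2.25 FPKM in pLKO (SD, n = 3 each), and neither passed the test (adjusted p = 0.68 and 0.056). In shBUB3 its log2 fold change was -0.098 ± 0.088 (adjusted p = 0.35), and without the third shBUB3 library it passed the test as lower (-0.20, adjusted p = 0.017). In shFOXA1 it passed as lower without pLKO replicate 3 (-0.26, adjusted p = 0.031). NPC2 rose in siEZH2 (0.29).

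SOAT1, the enzyme that esterifies cholesterol for storage in lipid droplets, fell steeply in shBUB3 and siEZH2. SOAT1 was at 9.76, 9.30 and 9.09 FPKM in shUSP7-1, 1.73, 1.65 and 1.45 in shBUB3 and 8.74, 9.26 and 8.96 in shFOXA1 libraries, against 7.63, 7.18 and 7.07 FPKM in pLKO. The shBUB3 libraries lay far below pLKO and the others just above it, with log2 fold changes of -1.67 in shBUB3, 0.32 in shUSP7-1 and 0.27 in shFOXA1 (SE 0.057 each; adjusted p = 5.3e-10, 0.00039 and 0.0012). SOAT1 was at 4.12, 3.43 and 3.31 FPKM in siEZH2 against 16.6, 18.5 and 16.3 FPKM in siCtrl, a log2 fold change of -1.97 ± 0.093 (adjusted p = 1.3e-07). In shFoxA1 it fell, at 5.66, 5.74 and 5.18 RPKM against 6.82, 6.19 and 6.43 RPKM in pGIPZ (-0.20 ± 0.051).

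**Figure D4:**
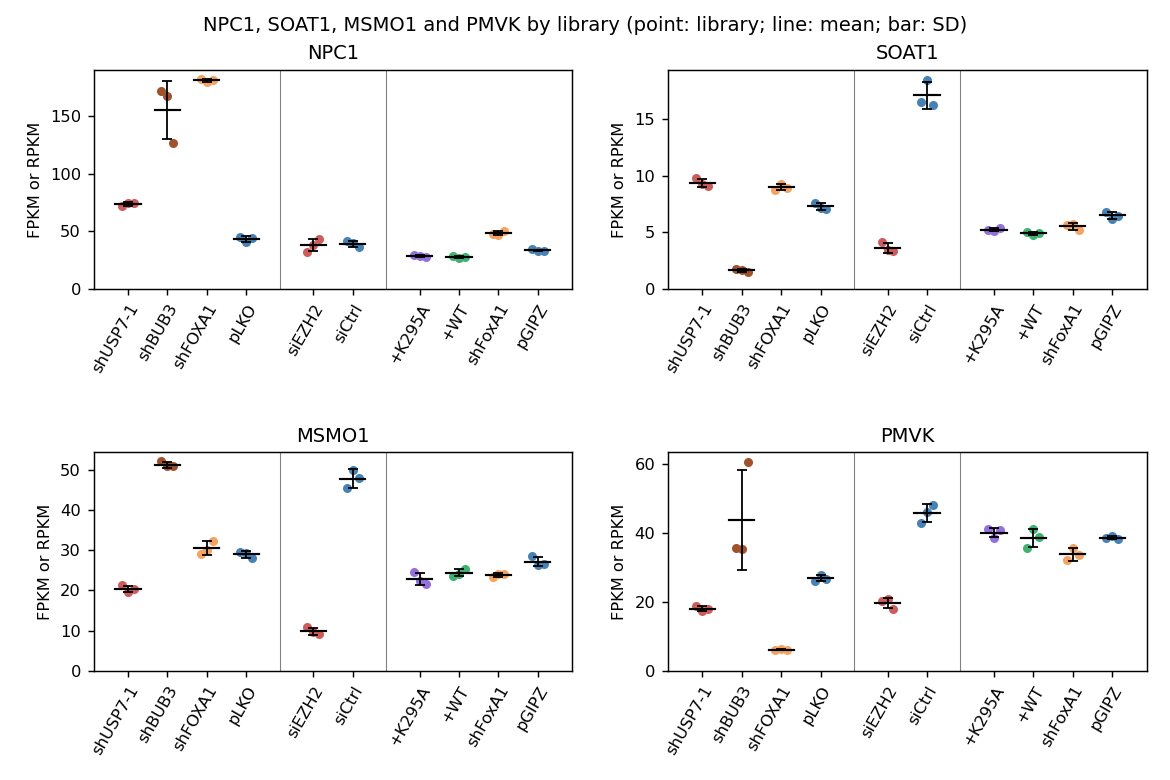
Level of NPC1, SOAT1, MSMO1 and PMVK in each library (points; FPKM left of the second grey line, RPKM right of it), with the mean (line) and SD (bar) of 3 libraries per group; +K295A and +WT are shFoxA1 K295A and shFoxA1 WT. NPC1 lies between 127 and 182 FPKM in shBUB3 and shFOXA1 and at 40.2 to 44.6 FPKM in pLKO, and SOAT1 lies lowest in shBUB3 and siEZH2.

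The export and uptake regulators that respond to LXR, the receptor for oxysterols, were low in abundance. ABCG1, an export pump, was at 4.52, 4.75 and 5.12 FPKM in shUSP7-1, 1.14, 1.22 and 1.25 in shBUB3 and 4.29, 4.29 and 3.84 in shFOXA1 libraries, against 2.70, 3.50 and 3.03 FPKM in pLKO. It rose in shUSP7-1 (0.51) and shFOXA1 (0.34), fell in shBUB3 (-0.88), and rose in siEZH2 at 6.81, 6.45 and 5.72 FPKM against 3.74, 3.94 and 3.54 FPKM in siCtrl (0.63). ABCA1, the untested member, was at 0.699, 0.618 and 0.686 FPKM in shUSP7-1 against 0.204, 0.145 and 0.116 FPKM in pLKO, and at 0.890, 1.0 and 0.807 FPKM in siEZH2 against 0.237, 0.278 and 0.223 FPKM in siCtrl. In both the knockdown libraries were above all controls, yet at or below a value of about 1. The mean of ABCA1 was below its control in the other knockdowns. It was 0.129 FPKM in shBUB3 and 0.0855 in shFOXA1 against 0.155 FPKM in pLKO, and 0.142 RPKM in shFoxA1 against 0.229 RPKM in pGIPZ. MYLIP, a ubiquitin ligase that LXR switches on, was at 9.69, 10.5 and 9.59 FPKM in shUSP7-1, 8.99, 7.61 and 7.24 in shBUB3 and 7.84, 7.0 and 7.21 in shFOXA1 libraries, against 5.54, 5.41 and 4.78 FPKM in pLKO. It rose in all of them (0.81, 0.52 and 0.42) and in shFoxA1 (0.23), but not in siEZH2, where it overlapped siCtrl (-0.19 ± 0.11, adjusted p = 0.13).

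STARD4, a cytosolic carrier of sterols, was at 1.54, 1.62 and 1.64 FPKM in shUSP7-1, 4.15, 4.42 and 3.51 in shBUB3 and 3.15, 3.07 and 3.51 in shFOXA1 libraries, against 4.29, 3.65 and 4.28 FPKM in pLKO. It fell clearly in shUSP7-1 (-0.96 ± 0.080, adjusted p = 9.6e-07) and overlapped the controls in shBUB3. Its fall in shFOXA1 (-0.26) did not pass after scaling (-0.11, adjusted p = 0.22). It also missed the threshold without pLKO replicate 1 or 3 or shFOXA1 replicate 2 (adjusted p = 0.052, 0.051 and 0.05). STARD4 fell in siEZH2 (-0.37) and shFoxA1 (-0.44).

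Re-expression of FOXA1 in the hairpin cells was read against shFoxA1, the same hairpin with no added FOXA1. In shFoxA1 K295A against shFoxA1, 17 members rose and 2 fell, where 38.7% of all genes rose and 18.3% fell. In shFoxA1 WT against shFoxA1, 17 members rose and 3 fell, where 36.6% of genes rose and 18.9% fell. The median log2 fold change was 0.20 over the members and 0.10 over all genes for K295A, and 0.18 and 0.083 for WT. Both comparisons shifted with the scaling, by -0.10 over all genes for K295A and -0.085 for WT. After scaling 10 members rose and 8 fell for K295A, where 3207 of 12563 genes tested rose and 3408 fell. For WT, 11 members rose and 4 fell after scaling, where 3229 genes rose and 3349 fell. Of the called genes, the share with higher values became 48.5% scaled against 67.9% as deposited for K295A, and 49.1% against 65.9% for WT.

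LBR, INSIG1, HSD17B7 and FDPS, which fell under the hairpin, were higher with added FOXA1. LBR was at 20.4, 20.7 and 20.9 RPKM in shFoxA1 K295A and 20.9, 21.4 and 21.9 RPKM in shFoxA1 WT, against 11.1, 10.1 and 10.8 RPKM in shFoxA1. INSIG1 was at 33.9, 35.8 and 34.2 RPKM in shFoxA1 K295A and 38.5, 38.0 and 36.7 RPKM in shFoxA1 WT, against 24.2, 24.3 and 23.6 RPKM in shFoxA1. Both genes were above every shFoxA1 library, LBR by 0.90 and 0.94 (SE 0.047 each) and INSIG1 by 0.51 and 0.63 (SE 0.036 each) on the log2 scale for K295A and WT. HSD17B7 rose by 0.59 and 0.54, FDPS by 0.41 and 0.40, SCAP by 0.35 and 0.41, and TM7SF2 by 0.24 and 0.31 in the same order. Each of these 6 genes still passed as higher after scaling.

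NPC1 went the other way. It was at 29.2, 28.5 and 27.7 RPKM in shFoxA1 K295A and 28.7, 26.8 and 27.6 RPKM in shFoxA1 WT, against 47.8, 46.3 and 49.8 RPKM in shFoxA1. NPC1 fell, with log2 fold changes of -0.73 and -0.77 (SE 0.037 each; adjusted p = 1.3e-08 and 8.3e-09), and both groups also lay below pGIPZ, at 34.1, 32.5 and 33.0 RPKM. NPC2 fell as well, at 33.7, 35.4 and 37.9 RPKM in shFoxA1 K295A and 35.7, 34.9 and 36.2 RPKM in shFoxA1 WT, against 43.6, 44.3 and 44.9 RPKM in shFoxA1 (-0.31 and -0.31). SOAT1 fell in WT (-0.14, adjusted p = 0.031), and missed the threshold without shFoxA1 replicate 1 or 2 or shFoxA1 WT replicate 2 or 3 (adjusted p = 0.091, 0.11, 0.092 and 0.067).

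Set against pGIPZ, 13 members were lower and 3 were higher in shFoxA1 K295A, where 12.8% of genes were lower and 37.8% higher, and 11 were lower and 6 higher in shFoxA1 WT, where 11.8% were lower and 33.7% higher. The scaling moved all genes by -0.11 for K295A and -0.092 for WT. Of the called genes, the share with higher values became 48.4% scaled against 74.7% as deposited for K295A, and 47.6% against 74.0% for WT. After scaling 17 members were lower and 0 higher for K295A, where 2639 of 12563 genes tested were lower and 2477 higher. For WT, 16 members were lower and 2 higher after scaling, where 2472 genes were lower and 2246 higher. EBP was at 66.8, 66.2 and 63.8 RPKM in shFoxA1 K295A and 73.3, 72.2 and 66.5 RPKM in shFoxA1 WT, between shFoxA1 and the 81.6, 81.9 and 77.1 RPKM of pGIPZ, and stayed lower than pGIPZ (-0.29 and -0.18). SREBF2 (-0.17 and -0.15), SC5D (-0.45 and -0.27) and DHCR7 (-0.23 and -0.14) also stayed lower in K295A and WT. The 3 members higher in K295A against pGIPZ were IDI1, LBR and INSIG1, at 0.20, 0.13 and 0.093 (adjusted p = 0.035, 0.035 and 0.048). No filter on low values, a fit of only these groups, and scaling each took the count of 3 to 0. The count was 1 when any 1 K295A library was left out. That member was SQLE without replicate 1, ACAT2 without replicate 2 and IDI1 without replicate 3. Without pGIPZ replicate 3 none of IDI1, LBR and INSIG1 passed in limma (adjusted p = 0.13, 0.15 and 0.19). ACAT2 and FDPS then passed as higher (adjusted p = 0.0033 and 0.026).

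**Figure D5:**
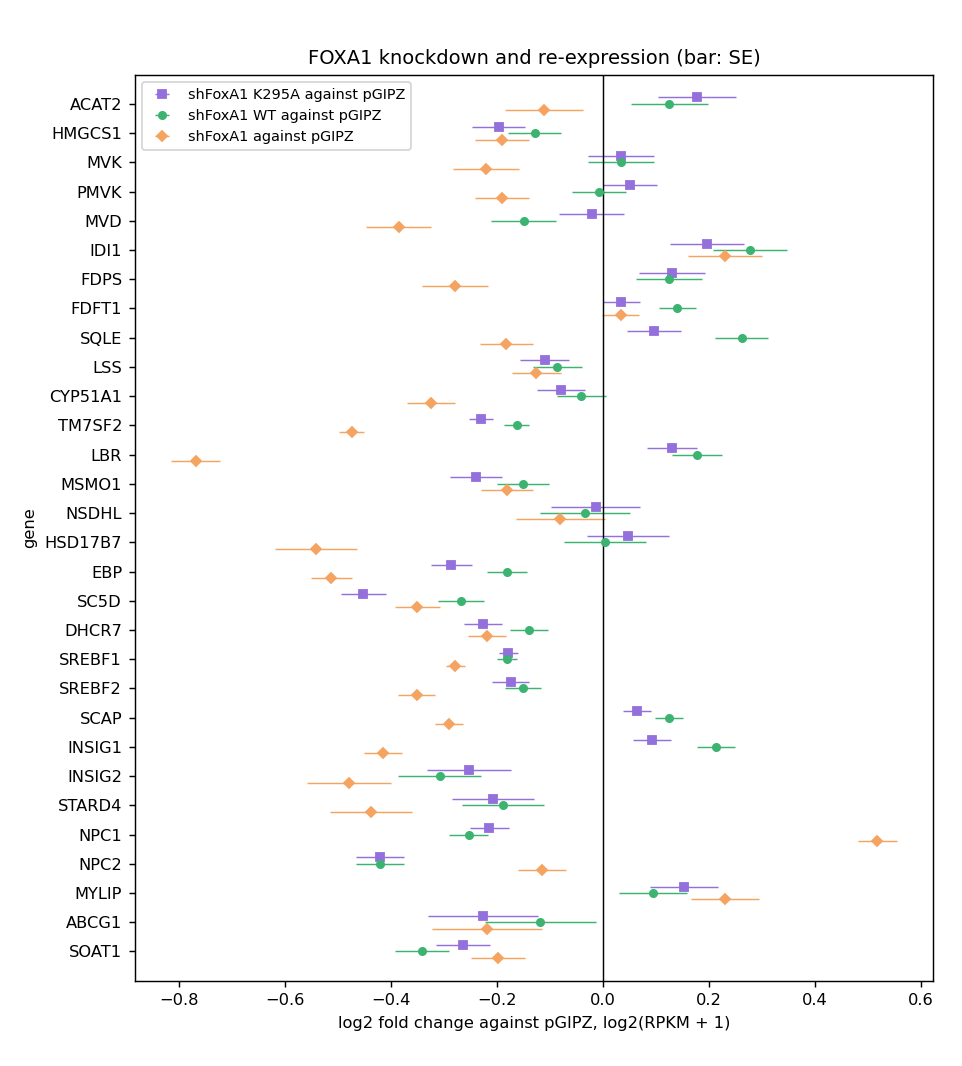
Log2 fold change against pGIPZ on log2(RPKM + 1) (x axis) with SE (bar) of the 30 tested cholesterol genes (y axis) in shFoxA1 K295A (squares), shFoxA1 WT (circles) and shFoxA1 (diamonds). LBR is at 0.13 in K295A, 0.18 in WT and -0.77 in shFoxA1, and NPC1 is at -0.21 in K295A, -0.25 in WT and 0.52 in shFoxA1.

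In shFoxA1 K295A against shFoxA1 WT, none of the 30 members passed the test in limma, where 0.183% of all genes tested did. At an unadjusted p under 0.05 were 8 members, against 10.4% of all genes, and the smallest adjusted p of a member was 0.16. The log2 fold changes ran from -0.18 (SC5D) to 0.13 (MVD), and the 95% intervals of all members lay between -0.34 and 0.26, so larger differences in RNA are outside the intervals. All K295A libraries were above all WT libraries for 1 member, SOAT1, where 10.5% of genes were so placed, and below them for 8 members, where 5.44% of genes were. SC5D was at 10.9, 10.2 and 10.4 RPKM in shFoxA1 K295A against 12.2, 11.7 and 12.4 RPKM in shFoxA1 WT (-0.18 ± 0.043, adjusted p = 0.16), and SQLE at 16.6, 18.7 and 18.0 RPKM against 19.5, 20.6 and 20.0 RPKM (-0.17 ± 0.050, adjusted p = 0.26).

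A wider list of sterol genes outside the members held 50 symbols, of which 39 were tested. Of these, 20 fell and 7 rose in shUSP7-1, 12 fell and 13 rose in shBUB3, 20 fell and 9 rose in shFOXA1, 18 fell and 6 rose in siEZH2, and 22 fell and 5 rose in shFoxA1. The shares of all genes that fell were 33.0%, 32.0%, 45.1%, 43.0% and 24.2% in that order, and those that rose 29.1%, 33.3%, 25.2%, 20.3% and 25.0%. The counts of the wider list in shBUB3, shFOXA1 and siEZH2 lie near those shares. TMEM97, a sterol-regulated membrane protein that binds NPC1, fell in shUSP7-1 (-1.53), shBUB3 (-0.98), shFOXA1 (-1.72), siEZH2 (-0.84) and shFoxA1 (-0.58).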

How the data were processed

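The authors deposited 1 table in FPKM, with the pLKO and siRNA libraries, and 1 in RPKM, with the pGIPZ libraries, both computed from their reads; alignment with STAR to hg38 is named per the submitters' processing notes. For the STAR version, the counting tool and the annotation, nothing was given in the sources used here. Both tables list 26475 genes, of which 26443 hold values, and 0 columns could not be tied to a sample. No read totals were used here; relative depth was read from the steps between low values, and no counting interval is given.

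Values were taken as log2(value + 1), which understates the fold change of low genes, after keeping genes that reached 1 in 3 or more libraries of an experiment. Each experiment was fitted once over all its groups with limma 3.58.1 in R 4.3.3, with Benjamini-Hochberg adjustment over all genes of a comparison, and no test crosses the experiments. Python 3.11.15, NumPy 2.4.6, pandas 2.3.3 and matplotlib 3.10.9 made the summaries and figures, and the fits were tested on simulated data. Alternatives were a pseudocount of 0.1, no filter, median-ratio scaling between libraries, a fit of only the groups compared, a replicate block, and leaving out each library.

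The members and lists were chosen with earlier results of these data known. All 31 members are described, with the targeted genes and, from lists of other sterol and fatty acid genes, up to 3 of the largest called changes per comparison and the members' direct partners. Promoters are RefSeq windows, and in 31 of 34 member windows the bases after the start lie in a transcript of the gene in GENCODE 29. Some genes of these lists are counted in the totals but not reported singly here.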

Additional observations from a re-analysis of the deposited data

Results flagged for a closer look

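For 4 members, all 3 libraries of the FOXA1 hairpin lay on one side of the control in the pLKO experiment and on the other side in the pGIPZ experiment. The share of all genes so placed is not given here, so this count cannot be read as particular to the members. Of all genes tested, 45.1% were called lower and 25.2% higher in shFOXA1, and 24.2% lower and 25.0% higher in shFoxA1. IDI1 had a log2 fold change of -0.19 in shFOXA1 against pLKO and 0.23 in shFoxA1 against pGIPZ. TM7SF2 was at 0.91 in shFOXA1 against pLKO and -0.47 in shFoxA1 against pGIPZ. SCAP was at 0.24 in shFOXA1 against pLKO and -0.29 in shFoxA1 against pGIPZ. SOAT1 was at 0.27 in shFOXA1 against pLKO and -0.20 in shFoxA1 against pGIPZ. The difference between the experiments was not tested for any of them, since vector, table and unit differ together with the experiment. IDI1 in shFOXA1 against pLKO was -0.0098 after median-ratio scaling, and the other values kept their sign under that scaling.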

How the results depend on the processing

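Median-ratio scaling moved the results most. Turned signs are named here only for values called before or after scaling. Scaling turned the sign of FDFT1 in shFOXA1 against pLKO (0.14), in shFoxA1 K295A against pGIPZ (-0.090) and in shFoxA1 K295A against shFoxA1 (-0.11). It also turned INSIG1 in shFoxA1 K295A against pGIPZ (-0.031) and SREBF1 in shFoxA1 WT (-0.0023) and shFoxA1 K295A (-0.017) against shFoxA1. Members called higher became 2 in shFoxA1 WT and 0 in shFoxA1 K295A against pGIPZ. Against shFoxA1 they became 11 in shFoxA1 WT and 10 in shFoxA1 K295A, where 8 were lower. Of 12563 genes tested, 2246, 2477, 3229 and 3207 were then called higher in that order. The cause was not tested. The count of members higher in shFoxA1 K295A against pGIPZ was also 0 with no filter and 0 with only those groups fitted. It was 1 to 4 over the fits that leave out a library. Of 300 gene values, scaling kept 251 on their side of the threshold. No filter kept 292, a pseudocount of 0.1 299 and the replicate block 291. A turned sign counted as a change only where the value was called in either fit. A fit of only the groups compared, which for siEZH2 is the fit already used, kept 258 of 270 values.

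Leaving out 1 library at a time gave the following ranges of members called higher and lower: 8 and 18 throughout in shUSP7-1, 13 to 15 and 10 to 12 in shBUB3, 6 and 15 to 16 in shFOXA1, 3 to 4 and 19 to 21 in siEZH2, and 2 to 3 and 21 to 23 in shFoxA1. Against pGIPZ they were 1 to 4 and 11 to 13 in shFoxA1 K295A and 6 to 8 and 10 to 13 in shFoxA1 WT, and against shFoxA1 15 to 17 and 2 to 3 in each. A call was lost in 21 of 300 gene values and gained in 19.

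Samples with the same replicate number in different groups had deviations that correlated at -0.185 to 0.126 in the pLKO, -0.126 to 0.058 in the siRNA and -0.069 to 0.0414 in the pGIPZ experiment. Samples with different numbers gave -0.137 to 0.189, -0.251 to 0.21 and -0.0496 to 0.0905 in that order. No pairing by number was seen in these ranges, but with 3 libraries a group they cannot exclude one. With the replicate block, members called higher and lower were 8 and 19 in shUSP7-1, 14 and 11 in shBUB3, 6 and 16 in shFOXA1, 3 and 21 in siEZH2, 3 and 22 in shFoxA1, 2 and 13 in shFoxA1 K295A against pGIPZ, 6 and 11 in shFoxA1 WT against pGIPZ, 17 and 2 in shFoxA1 K295A against shFoxA1, 18 and 3 in shFoxA1 WT against shFoxA1, and 0 and 0 in shFoxA1 K295A against shFoxA1 WT.

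With 3 libraries a group, no read totals and 1 cell line, differences smaller than the intervals could not be seen, and low genes such as ABCA1, ABCG1 and STARD4 rest on small values.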

Other observations

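Genes of fatty acid synthesis that SREBPs also switch on were measured as a further list of 24 genes outside the members, of which 22 were tested in the pLKO experiment and 23 in each of the others. In shUSP7-1, 16 fell and 2 rose, with a median log2 fold change of -0.86, against 33.0% of all genes that fell. In shBUB3, 15 fell and 3 rose (median -0.49), against 32.0% of all genes that fell, and in shFOXA1 15 fell and 5 rose (median -0.39), against 45.1% of all genes. In siEZH2, 17 fell and 2 rose (median -0.76), against 43.0% of all genes, and in shFoxA1 11 fell and 6 rose (median -0.091), against 24.2%. The shares of all genes that rose were 29.1%, 33.3%, 25.2%, 20.3% and 25.0% in that order. The highest log2 fold change of the list was 0.23 in shUSP7-1, 1.24 in shBUB3, 1.53 in shFOXA1, 1.35 in siEZH2 and 1.99 in shFoxA1. Counts of this list after scaling are not given here. FADS1, a fatty acid desaturase, was at 5.31, 4.08 and 5.10 FPKM in shUSP7-1, 4.64, 4.67 and 3.56 in shBUB3 and 3.58, 3.81 and 3.51 in shFOXA1 libraries, against 24.7, 23.3 and 23.9 FPKM in pLKO. It fell in each, with log2 fold changes of -2.10, -2.25 and -2.43. FADS2, the desaturase encoded beside it, fell in shBUB3 (-3.34 ± 0.074) and siEZH2 (-2.04 ± 0.069), and SCD, which makes monounsaturated fatty acids, fell in shFOXA1 (-2.74 ± 0.099), siEZH2 (-1.40 ± 0.065) and shFoxA1 (-1.01 ± 0.022). In shBUB3, 15 of the 22 fatty acid genes fell and 3 rose, and 10 of the 30 cholesterol genes fell and 14 rose. Of all genes tested there, 32.0% fell and 33.3% rose. Whether the lists differ was not tested.

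CYP7A1, which starts the conversion of cholesterol into bile acids and is known for its expression in liver, was at 7.70, 11.6 and 9.22 FPKM in siEZH2 against 0.0262, 0.110 and 0.159 FPKM in siCtrl (3.24 ± 0.13, adjusted p = 6.3e-08, limma). The groups did not overlap, and it was the largest called change of the wider sterol list in that comparison. THRSP, a regulator of fatty acid synthesis, was at 5.04, 5.85 and 4.96 RPKM in shFoxA1 against 0.303, 0.926 and 0.566 RPKM in pGIPZ (1.99 ± 0.13). It was lower again with added FOXA1, at 2.0, 2.07 and 2.15 RPKM in shFoxA1 K295A and 2.66, 2.33 and 1.81 RPKM in shFoxA1 WT (-1.03 and -0.95 against shFoxA1).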
